A study of Homo sapiens with 11 samples.

Results

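dsEcad640, a siRNA designed against the promoter of the E-cadherin gene CDH1, was compared with the natural miR-302a duplex, which has the same seed but different bases elsewhere. The comparison was made in PC-3 cells, an established human prostate cancer cell line, as the direct log2 difference of 2 Agilent whole human genome arrays with 1 colour on one slide, dsEcad640 sample 2 minus miR-302a sample 3. Its members were the probes with a value in the deposited table of log2 values whose spots exceeded background clearly on one or both arrays, 25547 of the 41000 probes on the array and 12928 genes with a current symbol. All 25547 did so on both arrays. Mock sample 1 of the same slide, made after transfection with no duplex, shows which of both arrays lay away from the reagent alone. For each array, 4 independent transfections were harvested at 24 h and their RNA was combined, with 150 ng used, so that there was 1 array a side, no test was possible, and the spread between transfections is not visible. The whole series has 11 arrays in 3 sets of 1 slide each, which also hold miR-372 on 2 arrays, 1 array each of the duplexes miR-520f, miR-520c and miR-373, and 3 further mock arrays.

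In RNA silencing, one strand of a short duplex is held by an Argonaute protein, and bases 2 to 8 of this strand, the seed, find messages by pairing with sites that are mostly in the 3′ untranslated region. Messages with such a site are reduced modestly, whereas a message that pairs along most of the strand can be cut by AGO2. A siRNA and a miRNA with one seed therefore share their seed targets, while bases outside the seed, and the other strand of the duplex, can differ between them. The family of miR-302, miR-372 and miR-373 is known for its high level in embryonic stem cells and for targets in the TGF-beta pathway and the cell cycle.

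The mature strands of the miRNAs of the series are shown from RefSeq (GRCh38.p14) because the comparison rests on what they share, with bases 2 to 8 in capitals.
hsa-miR-302a-3p: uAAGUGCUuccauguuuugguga
hsa-miR-302a-5p: aCUUAAACguggauguacuugcu
hsa-miR-372-3p: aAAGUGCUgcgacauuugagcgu
hsa-miR-373-3p: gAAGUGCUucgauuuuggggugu
hsa-miR-520c-3p: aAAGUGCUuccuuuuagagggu
hsa-miR-520f-3p: aAGUGCUUccuuuuagaggguu
miR-302a lies on chr4, with the 3p strand at chr4:112648186-112648208 and the 5p strand at chr4:112648224-112648246, both on the minus strand. The seed AAGUGCU is common to 4 of these 6 strands, and it pairs with the site AGCACTT. The study counts dsEcad640 among the duplexes with this site, and gives ATTTCAG as the site of the opposite strand of dsEcad640 and GTTTAAG as that of the opposite strand of miR-302a. The strands of dsEcad640 are not printed here.

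Most probes differed little between the 2 duplexes. The difference between dsEcad640 and miR-302a was under 1.5-fold for 97.6% of the members, with a median of -0.00 and a robust SD, taken from the middle 50% of the values, of 0.21 on the log2 scale. At least 1 on the log2 scale, which is 2-fold, separated 91 probes, 0.356% of all. 34 of them were higher under dsEcad640 (0.133% of all) and 57 were lower (0.223%). After normexp background correction, which shrinks dim probes, these were 10 and 35. Against mock sample 1 the robust SD was 0.32 under dsEcad640 and 0.25 under miR-302a, and 502 and 230 probes were at least 2-fold away from mock, respectively.

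Pairs of mock arrays show how far arrays of one treatment can differ. Mock samples 11 and 9, on one slide of another set, differed by at least 2-fold at 608 of 27191 probes (2.24%), with a robust SD of 0.31. Mock samples 1 and 8, on different slides, were closer, and the labels do not say whether their RNA came from separate transfections, so that this pair may show technical spread alone. In scanner signals scaled to the 75th percentile of each array, they differed by at least 2-fold at 122 of 25543 probes (0.478%), with a robust SD of 0.11, which is near the SD of 0.0938 and 0.0907 between the spots of a probe on these arrays. In the same scaled signals dsEcad640 and miR-302a differed by at least 2-fold at 149 probes (0.583%) with a robust SD of 0.23. The difference between the duplexes was therefore wider than that of one pair of mock arrays and narrower than that of the other.

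**Figure D1:**
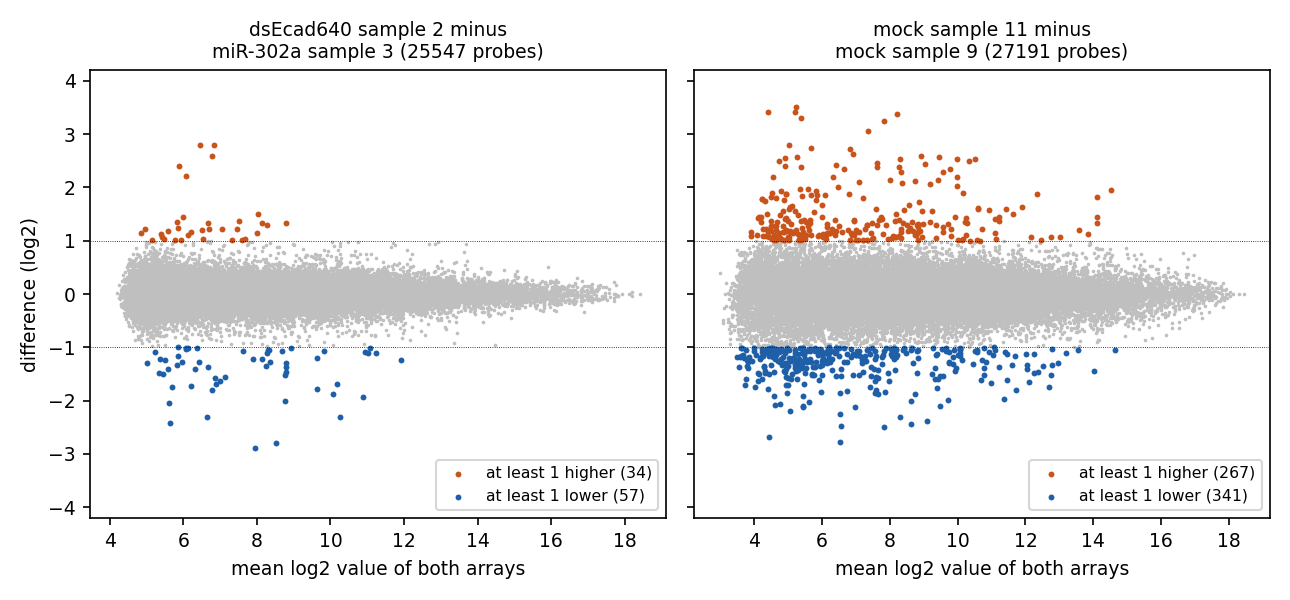
Difference between 2 arrays of one slide (log2, vertical) against their mean log2 value in the deposited table (horizontal), 1 point per probe, for dsEcad640 minus miR-302a and for mock sample 11 minus mock sample 9. The duplexes differed by at least 1 at 34 and 57 probes, the mock arrays at 267 and 341, and the points past 1 thin out to the right.

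Few of the probes past 2-fold were bright, and the higher ones were mostly dim. When the members were split into 5 groups of equal size by their mean level, the dimmest group held 14 of the 34 higher and 16 of the 57 lower probes, whereas the brightest group held 0 and 4. The second dimmest group held 12 higher and 12 lower probes, and the middle group 8 and 17, the most lower probes of any group. The next brightest group held 0 higher and 8 lower probes, so the bright probes past 2-fold were all lower under dsEcad640. Among the 30 genes with several member probes of which at least 1 was past 2-fold, all probes were past 2-fold in one direction in 4, all probes lay on one side of 0 in 20, and probes lay on opposite sides in 10. Values are therefore given per probe.

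**Figure D2:**
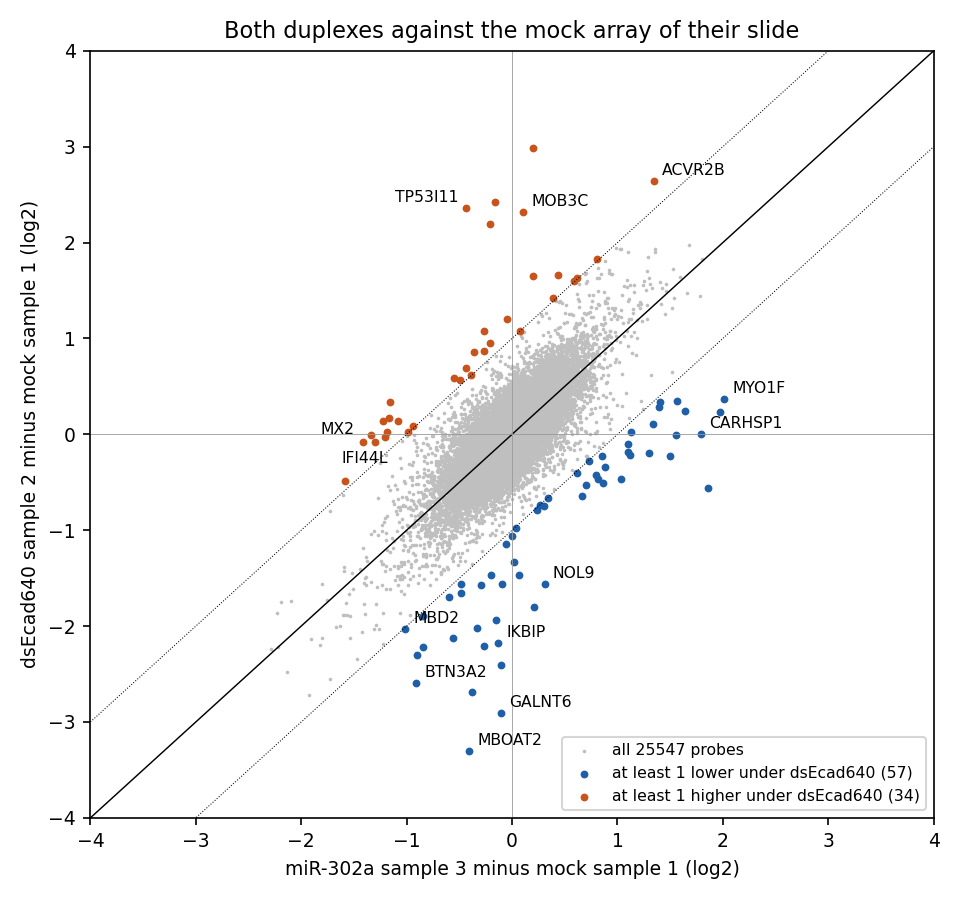
Difference of miR-302a sample 3 (horizontal) and dsEcad640 sample 2 (vertical) from mock sample 1, log2, 1 point per probe; the solid line marks equal differences and the dotted lines a gap of 1. Coloured points hold the 57 lower and 34 higher probes; the blue points below the origin near 0 on the horizontal axis are those away from mock under dsEcad640 alone, such as GALNT6. Both axes share mock sample 1.

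Mock sample 1 assigned the 91 probes. At a size of 0.5 on the log2 scale, 41 lay away from mock under dsEcad640 alone (17 higher, 24 lower under dsEcad640), 34 under miR-302a alone (12 higher, 22 lower) and 11 under both in the same direction (4 higher, 7 lower). At 5 probes the duplexes lay on opposite sides of mock. Of the 24 lower probes of dsEcad640 alone, 0 differed by at least 1 between mock samples 11 and 9, and of the 12 probes below mock under miR-302a alone also 0, which is near the background of 1.87% of all members. Between mock samples 1 and 8 none of the probes away from mock under one duplex alone did (0 of 41 and 0 of 34). Of all members 122 of 25543 (0.478%) did so, a share so low that these counts of 0 say little. Of the 22 probes that were higher than mock under miR-302a alone, 8 of the 20 with a value differed by at least 1 between mock samples 11 and 9. Of the 17 higher probes of dsEcad640 alone, 4 of 16 differed by at least 1 between mock samples 11 and 9.

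The largest gap belonged to MBOAT2, a lysophospholipid acyltransferase that remodels membrane lipids. Its probe at chr2:8910532-8910591 (hg18, the build of the array's coordinates) had a log2 value of 9.81 on mock sample 1, 6.51 under dsEcad640 and 9.40 under miR-302a, 7.44-fold lower under dsEcad640. A second probe at chr2:8914625-8914684 gave a difference of -2.30, whereas the third at chr2:8915794-8915853 gave -0.25. The other common-seed arrays, each against mock of its own slide (the mean of both mock arrays in set 3), lay between -0.48 and -0.20 at the first probe, and miR-520f at -0.92. MBOAT2 was thus low on the dsEcad640 array beyond any of the other duplexes, at 2 of its 3 probes.

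GALNT6, an enzyme that starts the O-glycosylation of proteins, showed the same pattern at its single member probe. Its log2 value was 10.02 on mock sample 1, 7.11 under dsEcad640 and 9.91 under miR-302a, a difference of -2.80. On the arrays of miR-372, miR-373 and miR-520c it lay within 0.23 of mock in either direction, and on that of miR-520f at -0.55. NOL9, a kinase of ribosomal RNA processing, had 10.69, 9.12 and 10.99 on the arrays of mock, dsEcad640 and miR-302a at chr1:6504152-6504211, and all other duplexes lay 0.20 to 0.43 above mock. Its other probe, at chr1:6508362-6508421, differed by -0.09. IKBIP, a gene described as a partner of the IKK beta kinase, had 6.76, 4.58 and 6.63, while its other probe differed by -0.07. At the first probe miR-372 sample 4 also lay at -1.38 from mock, and the other duplexes at -0.53 to -0.16.

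ROCK2, a kinase that acts below RHOA on the actin cytoskeleton, was lower under dsEcad640 at both of its probes, by -1.46 and -0.93, with miR-302a at -0.10 and -0.09 from mock. SMIM11, a small membrane protein, differed by -1.53 and -1.35 at probes at chr21:34679698-34679757 and chr21:34679731-34679790, which overlap, and by -0.01 at the third, at chr21:34696767-34696826. IPO9 and KPNA6, both carriers of nuclear import, differed by -1.27 (-0.25 at the other probe of IPO9) and -1.02, and HILPDA, a lipid droplet protein, by -1.10. For all of these probes past 2-fold the array of miR-302a lay within 0.23 of mock. The low values of dsEcad640 alone were thus at genes of several functions, and none of the gene lists held one of MBOAT2, GALNT6, NOL9, IKBIP and ROCK2.

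A second group was low under both duplexes and lower under dsEcad640. BTN3A2, a butyrophilin of the cell surface known from gamma-delta T cell recognition, had log2 values of 8.63 on mock sample 1, 6.04 under dsEcad640 and 7.72 under miR-302a. Its second probe had 7.94, 5.63 and 7.03, and the differences between the duplexes were -1.68 and -1.40. The other duplexes lay at -1.50 to -0.87 from mock over both probes. MBD2, a reader of methylated DNA and a known target of the family, had 12.61, 10.58 and 11.59, which is 2.02-fold lower under dsEcad640 than under miR-302a. Its differences from mock under the other duplexes were -1.87 (miR-520f), -1.84 (miR-520c), -1.40 and -1.32 (miR-372) and -1.24 (miR-373). FITM2, which acts in lipid droplet formation, differed by -1.37 at one probe, with -2.22 and -0.84 from mock, but by 0.24 at its other probe. THAP6 differed by -1.57, CNOT6, a deadenylase of the CCR4-NOT complex, by -1.10, and MYLK, the myosin light chain kinase, by -1.05, all with both duplexes at least 0.5 below mock. For CNOT6, 3 probes spread from -1.10 to 0.44, and for MYLK the other probe had -0.59.

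Of the genes higher under dsEcad640, the same split was seen. ACVR2B, an activin receptor, was high under both duplexes and higher under dsEcad640, with 6.28 on mock sample 1, 8.92 under dsEcad640 and 7.63 under miR-302a. Its 3 probes differed by 1.30, 0.98 and 0.62, and all other duplexes lay above mock at the first probe, by 1.22 to 2.59. TET1, which oxidises methylcytosine in DNA, differed by 1.02 and 1.01 at its probes, with dsEcad640 1.63 and miR-302a 0.62 above mock at the first. The probes overlap, and under miR-372 sample 4 they lay at 0.03 and -1.24. ZBTB34, a zinc finger protein, had 6.41, 8.07 and 6.85, and under miR-520f it lay 2.14 above mock.

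TP53I11 and MOB3C were high on the dsEcad640 array alone. TP53I11, a gene induced by p53, had 5.86 on mock sample 1, 8.22 under dsEcad640 and 5.43 under miR-302a, a 6.93-fold difference. Its other member probe differed by 0.17, and the other duplexes with a value lay from -1.67 to 0.43 at the first probe. MOB3C, of the family of MOB kinase activators, had 4.87, 7.18 and 4.97, while its other probe differed by 0.04. LMBRD2, which has 4 member probes, differed by 1.35 at one and by -0.28 to 0.32 at the others. IL6, an inflammatory cytokine, had 6.45, 7.31 and 6.09, and mock samples 11 and 9 differed by 2.11 at this probe, more than the duplexes did. LINC00239, a long noncoding RNA, had 7.18, 7.35 and 6.02, so that it lay below mock under miR-302a. The high values of TP53I11, MOB3C and LMBRD2 rest on 1 probe each. After normexp correction LMBRD2 (0.53), IL6 (0.72), LINC00239 (0.84) and ZBTB34 (0.90) were no longer past 2-fold.

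**Figure D3:**
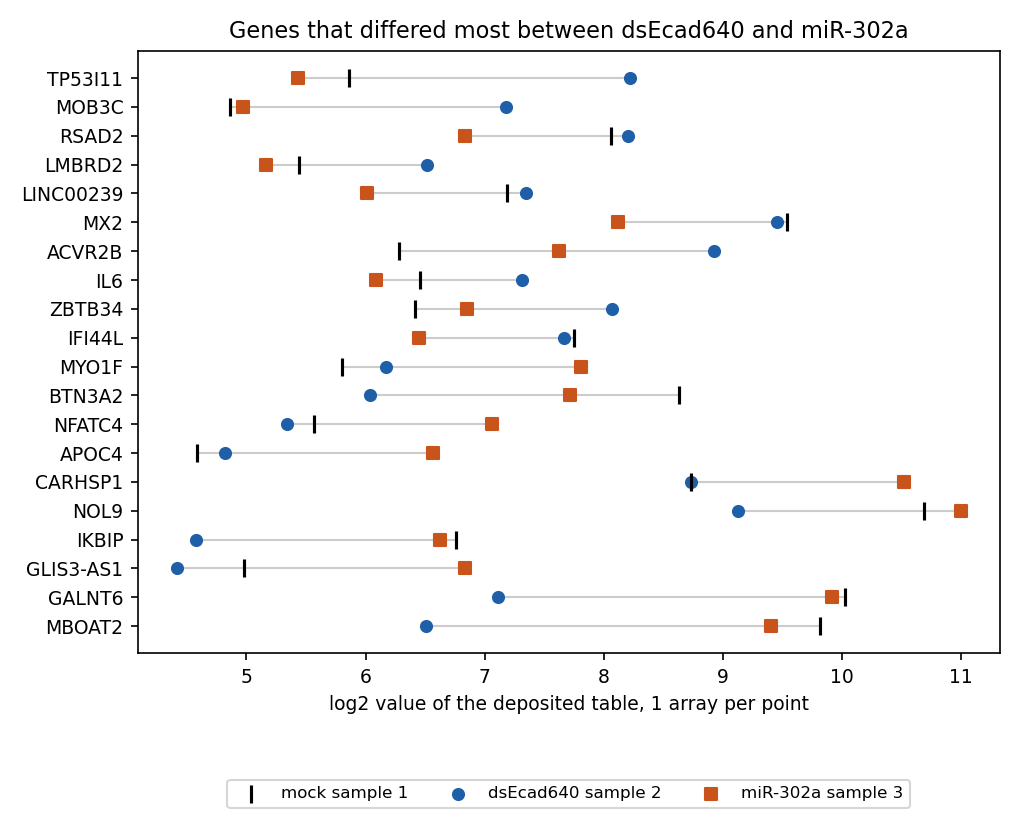
Log2 values in the deposited table (horizontal) on mock sample 1 (bar), dsEcad640 sample 2 (circle) and miR-302a sample 3 (square) for the 10 genes most higher and the 10 most lower under dsEcad640, 1 probe per gene and 1 array per point. For MBOAT2, GALNT6, IKBIP and NOL9 the circle stands alone on the left; for RSAD2, MX2 and IFI44L the square does.

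Where miR-302a alone lay above mock, several genes also differed between mock samples 11 and 9. CARHSP1, a cold shock domain protein that binds RNA, had 8.73 on mock sample 1, 8.73 under dsEcad640 and 10.52 under miR-302a, and mock samples 11 and 9 differed by -1.61. The other duplexes lay above mock there too, miR-520f by 1.88 and the rest by 0.40 to 0.93. PRPF19, a splicing factor, ADAM15, a membrane metalloprotease, and ITM2C, a membrane protein of neurons, differed by -1.08, -1.20 and -1.22 between the duplexes and by -2.43, -2.00 and -2.50 between these mock arrays. CLASRP, a splicing regulator, differed by -1.22 and -1.11 at 2 of its 3 probes (-0.25 at the other), where the mock arrays differed by -1.48 and -1.33. The part of whatever moved the mock arrays in these differences was not tested. MYO1F, a myosin of blood cells, and NFATC4, a transcription factor under calcineurin, had small gaps of -0.20 and -0.21 between mock samples 11 and 9. MYO1F had 5.80, 6.17 and 7.81 on the arrays of mock, dsEcad640 and miR-302a, but its second probe differed by 0.02. NFATC4 had 5.56, 5.34 and 7.06. APOC4, an apolipoprotein of the liver, and GLIS3-AS1, an antisense RNA of GLIS3, had values in set 1 alone, where they differed by -1.74 and -2.42. On the array of miR-372 sample 4 they also lay above mock, by 1.69 and 1.43. That array stands apart, with 88.1% of its probes clearly above background against 64.2% on mock sample 1, so these values are weak support.

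Most probes of the study's decreased seed-site list were lower under dsEcad640 than under miR-302a. The study lists probes whose genes have the AGCACTT site in the 3′ untranslated region, as decreased or increased, and it chose them on these arrays, so that their direction against mock is no independent evidence. The 323 probes of the decreased list used here were all members and all lay below mock under dsEcad640, miR-302a and miR-373, while 280 did under miR-520f. They had a median of -0.53 from mock under dsEcad640 and -0.32 under miR-302a. The direct difference had a median of -0.18, and 250 of 323 lay below 0, against 50.8% of all members. This difference is not independent of the study's choice either, because the list holds probes that were low on both arrays. The spread from mock was also wider under dsEcad640 (robust SD 0.32) than under miR-302a (0.25) over all members. How much of the difference comes from the choice was not tested. Between mock samples 11 and 9 the list leaned the same way by less. Its median there was -0.07, with 193 of 323 below 0, against 12207 of 24836 members. 30 of the 323 were lower under dsEcad640 by at least 0.5 and 1 was higher by as much, against 506 and 525 of all 25547 members. Only the 2 probes of BTN3A2 were past 2-fold. The 114 probes of the increased list had medians of 0.27 and 0.26 from mock and of 0.03 between the duplexes, with 48 below 0.

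The gap was of similar size for each number and kind of site. Probes with 1 site had a median difference of -0.18 (270 probes), and those with 2 or more sites -0.20 (53 probes), although the latter lay lower under dsEcad640 (-0.68 against -0.49 from mock) and under miR-302a (-0.37 against -0.31). With the shifted site AAGCACT, which pairs with the seed of miR-520f, the median difference was -0.18 (108 probes), and without it -0.19 (215 probes). The lower end of the list held BTN3A2, PBK, ACTR1B and SNPH. PBK, a mitotic kinase, had 11.77 on mock sample 1, 9.58 under dsEcad640 and 10.54 under miR-302a. ACTR1B, a dynactin subunit, lay at -1.05 from mock under dsEcad640 and -0.16 under miR-302a, and SNPH, which encodes syntaphilin, differed by -0.85 between the duplexes. At ACTR1B and SNPH miR-520f was also low (-1.49 and -1.77), as was miR-520c (-1.001 and -0.84), and miR-372 and miR-373 lay between -0.40 and -0.02. At the upper end were LMO4 (0.52), LATS2 (0.40), RHBDL2 (0.35, with 0.09 and 0.00 at its other probes), RAB3GAP1 (0.33) and SIRPA (0.33, with 0.04 and -0.10), at which miR-302a was the lower of both. LATS2, a kinase of the Hippo pathway, had 7.98 on mock sample 1, 7.30 under dsEcad640 and 6.90 under miR-302a, and its other probe differed by 0.30.

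**Figure D4:**
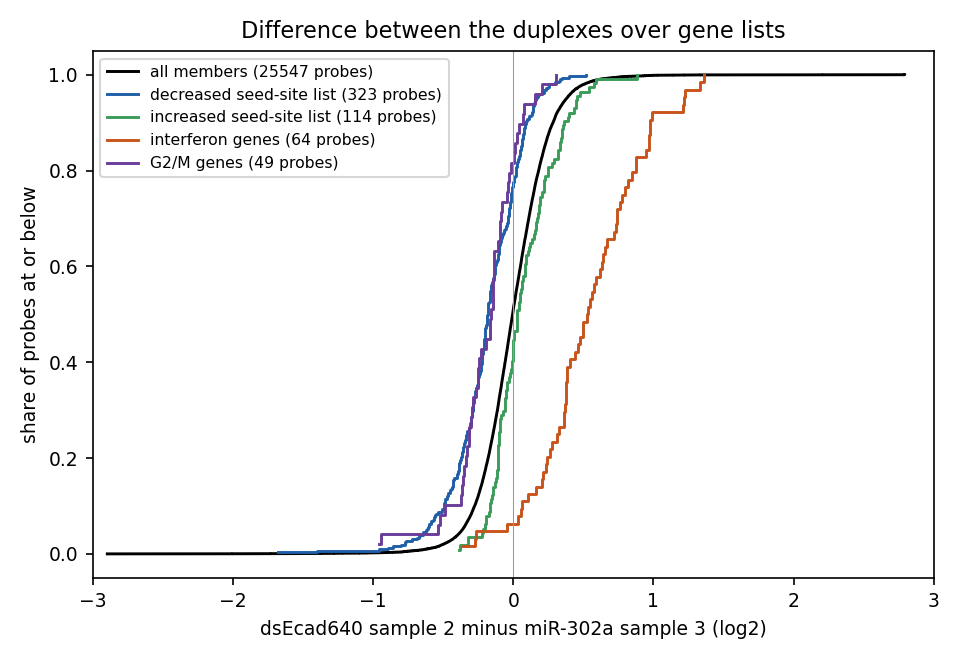
Share of probes at or below a given difference dsEcad640 minus miR-302a (log2), for all members, the decreased and increased seed-site lists, interferon-stimulated genes and G2/M genes. The decreased list is shifted left (median -0.18) and the interferon genes right (median 0.53) of all members.

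Published targets of the family gave a similar picture. Of 38 genes, 32 had a member probe, and their 50 probes had medians of -0.60 from mock under dsEcad640, -0.39 under miR-302a and -0.12 between the duplexes, with 32 below 0. MBD2 was the one probe past 2-fold. DAZAP2 (-0.79), E2F1 (-0.69), RBL1 (-0.54 and -0.53) and NR2F2 (-0.38 and -0.22) were lower under dsEcad640, whereas EPAS1 (0.40), BTG2 (0.39) and KDM1B (0.24) were higher. TGFBR2, the type II TGF-beta receptor, was low under both duplexes, with 12.07 on mock sample 1, 9.93 under dsEcad640 and 10.17 under miR-302a, and its other probe gave a difference of -0.13. MICA, a stress ligand of the NKG2D receptor of natural killer cells, had 9.62, 7.95 and 8.07 at one probe and 11.33, 11.06 and 11.15 at the other, where both duplexes lay closer to mock (-0.27 and -0.18). The 7 probes of 3 measured NKG2D ligand genes had a median of -0.21, and 6 lay below 0.

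CDH1, whose promoter dsEcad640 was designed against, and ZEB1, a repressor of CDH1, were measured by 1 probe each. The paper detected no rise of CDH1 on these 24 h arrays and reports it at a later time by quantitative RT-PCR. In its reporter assays the promoter sites were not functional, and dsEcad640 and miR-302a acted on the coding region of ZEB1. CDH1 had 5.32 on mock sample 1, 6.24 under dsEcad640 and 5.80 under miR-302a, a difference of 0.44, while mock samples 11 and 9 differed by -0.70. ZEB1 had 5.29, 4.37 and 4.66, a difference of -0.29, with -0.27 between those mock arrays. The gap between the duplexes was smaller than that between these mock arrays at CDH1 and about as large at ZEB1. After normexp background correction the difference at CDH1 was 0.05, and at ZEB1 it was -0.41, with -0.53 in scaled scanner signals. The 9 probes of 7 E-box repressor genes had a median of 0.14, with SNAI1 at 0.42 and ZEB2 at 0.36. The 46 probes of 34 epithelial genes had a median of -0.01, and both duplexes lay above mock there, by medians of 0.22 and 0.19. OCLN and MARVELD2, proteins of tight junctions, differed by 0.68 and 0.67 at one probe each and by 0.01 and 0.15 at the other.

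Interferon-stimulated genes had the largest median difference of the gene lists. These genes encode antiviral proteins and sensors of double-stranded RNA, such as RIGI and IFIH1, and are switched on by interferons. Of 54 genes, 44 had a member probe, and their 64 probes had a median difference of 0.53, with 60 above 0, against 49% of all members. After normexp correction the median was 0.32. 5 of the 64 probes were past 2-fold on the high side, against 0.133% of all members. On the low side 0 were, against 0.223% of all members, a share so low that this 0 says little. By the medians, mock sample 1 placed the gap on the side of miR-302a. Under miR-302a the median was -0.52 from mock, with 62 of 64 below 0, against 49% of all members, and under dsEcad640 it was 0.07, with 28 of 64 below 0, against 49.7%. The same list differed by a median of 0.30 between mock samples 11 and 9.

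RSAD2, the antiviral protein viperin, had 8.06 on mock sample 1, 8.20 under dsEcad640 and 6.84 under miR-302a at one probe, and 5.44, 5.58 and 4.35 at the other. MX2, a dynamin-like GTPase that blocks viruses, had 9.53, 9.45 and 8.12, and 7.09, 7.11 and 5.90 at its other probe. IFI44L had 7.75, 7.67 and 6.45. In all 5 of these probes, mock and dsEcad640 stood together and miR-302a apart. After normexp correction the second probes of RSAD2 and MX2 differed by 0.10 and 0.55, and IFI44L by 0.84. Between mock samples 11 and 9 these probes differed by -0.14 to 0.67. Further members were close to 2-fold, among them SAMD9 (0.99), IFIH1 (0.97), MX1 (0.97), GBP1 (0.98 and 0.37), OAS1 (0.88) and RIGI (0.85). Some members departed from the medians of the list. SAMD9 lay at 0.75 from mock under dsEcad640 and at -0.24 under miR-302a, and IFIT1 at 0.50 and -0.26. PSMB9 was low under both duplexes, at -0.75 and -0.81. At the low end stood IFI6 (-0.37, with 0.39 at its other probe), IRF1 (-0.27) and IRF9 (-0.26, with 0.28 at its other probe). GBP5, an interferon-inducible gene outside the list and chosen after its values were seen, differed by 1.17.

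The other duplexes fell on both sides of mock. The median of the list was -0.91 under miR-372 sample 4, -0.85 under miR-373 and -1.05 under miR-372 sample 10, and 0.25 under miR-520f and 0.66 under miR-520c. In scanner signals against the mean of the 4 mock arrays it was -0.05 under dsEcad640 and -0.59 under miR-302a, and the 4 mock arrays themselves lay from -0.08 to 0.16. miR-302a was thus on the side of miR-372 and miR-373, and dsEcad640 near mock. miR-520c has the seed of miR-302a, miR-372 and miR-373 in the sequences above. Arrays of duplexes with one seed thus lay on both sides of mock, and the cause was not tested. The array of miR-372 sample 4 stands apart, with 88.1% of its probes clearly above background, while the others range from 54.5% to 72.9%.

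Promoters of these genes were read from RefSeq (GRCh38.p14, 250 bases before to 50 after the start) for the core of the interferon response element, GAAANNGAAA, on both strands. Of 44 measured genes, 36 had a promoter in the table, and 22 of these held the element (61.1%). The share was 2.68% of 10389 promoters of genes among the members and 3.65% of all 27305 promoters. The list was chosen as interferon-stimulated genes, so this share is no result about the duplexes. Genes with and without it had median differences of 0.53 and 0.40 between the duplexes, each gene by its largest probe, and medians of -0.57 and -0.65 from mock under miR-302a, where the order is turned. RSAD2, OAS1 and RIGI were among the genes without it in this window. The windows of the 5 genes with the element that differed most show it in capitals.
IFI44L: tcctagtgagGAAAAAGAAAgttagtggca
SAMD9: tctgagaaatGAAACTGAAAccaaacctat
GBP1: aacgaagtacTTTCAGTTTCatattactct
IFIH1: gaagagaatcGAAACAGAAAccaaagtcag
MX1: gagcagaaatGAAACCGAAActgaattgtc
They lie at chr1:78620365-78620394, chr7:93118096-93118125, chr1:89065316-89065345, chr2:162318686-162318715 and chr21:41420559-41420588 and are written along the gene, with the element of GBP1 on the opposite strand. A match in these letters is a description and no measured binding.

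Lists of the stress response and of inflammation leaned the same way by less. The 24 probes of 21 NF-kappaB and inflammatory genes had a median of 0.19, with 19 above 0 and IL6 alone past 2-fold, while mock samples 11 and 9 differed by a median of 0.96 on this list. After normexp correction the median was 0.10. The chemokines CXCL2 (0.93 and 0.38) and CXCL8 (0.61 and -0.22) and the adhesion protein ICAM1 (0.49) were among the higher members. The 31 probes of 23 ER stress and ATF4 genes had a median of 0.20, with 8 below 0, and here dsEcad640 lay above mock at ATF3 (1.06, where mock samples 11 and 9 differed by 2.20), the cystine carrier SLC7A11 (1.26 and 0.79) and TRIB3 (0.75). The 28 probes of 20 genes of G1 brakes and p53 targets had a median of 0.16, with 10 below 0, which was -0.0015 after normexp correction. Mock samples 11 and 9 differed by about as much on this list, by a median of 0.15, also with 10 below 0. CDKN2C, an inhibitor of CDK4 and CDK6, was the highest at 0.92, and lay at -0.80 under dsEcad640 and -1.72 under miR-302a from mock. SESN1, TP53INP1 and the BCL2 family members PMAIP1 and BMF differed by 0.51, 0.52, 0.69 and 0.55.

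G2/M genes leaned to the low side of dsEcad640. Their 49 probes, of 40 genes all measured, had a median of -0.16, with 40 below 0, and medians of -0.30 and -0.14 from mock under dsEcad640 and miR-302a. Mock samples 11 and 9 differed by a median of -0.14 on this list. PBK (-0.96), the phosphatase CDC25B (-0.94), CCNB2 (-0.54, with -0.08 at its other probe) and CDCA3 (-0.52 and -0.49) were among the lowest, and the kinase CDK1 and the ubiquitin enzyme UBE2C stood at 0.01. S phase genes, 48 probes of 36 genes, had a median of -0.01, with 26 below 0 and E2F1 lowest at -0.69.

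The remaining lists had medians within 0.13 of 0, and ACVR2B alone was past 2-fold in them. The TGF-beta pathway had 0.11 over 45 probes (-0.0025 after normexp correction), with BAMBI, a decoy receptor, at 0.39 and TGFB2 at -0.29 and 0.26. YAP target genes and Hippo kinases had 0.13 over 33 probes, with YAP1 at -0.78 and 0.04 and the kinase STK4 at 0.50, 0.36 and 0.24. The small RNA machinery had 0.13 over 31 probes, from DICER1 at -0.36 (0.39 at its other probe) and AGO1 at -0.31 to one of 4 probes of TNRC6B at 0.70, and AGO2 stood at 0.02. Mesenchymal and matrix genes had 0.04 over 34 probes, with COL1A1 at 0.98. Cholesterol and fatty acid synthesis genes had 0.02 over 42 probes and the BCL2 family 0.01 over 35.

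For the tissue label, what counts is which markers were measured. The difference between the duplexes cannot check it, because both arrays are of one line. All 5 markers of an epithelial line, KRT8, KRT18, KRT19, EPCAM and HOXB13, were measured, with a median difference of -0.08 over 10 probes. Both duplexes lay above mock there, by medians of 0.53 under dsEcad640 and 0.55 under miR-302a. Androgen-response and luminal prostate markers, for which PC-3 is known to be poor, had 6 of 13 probes among the members, with a median of 0.03. Of the 12 blood, endothelial and fibroblast genes, 5 had a member probe, with a median of -0.17, which was -0.34 in scaled scanner signals and -0.31 after normexp correction. PTPRC, HBB, CDH5, COL1A2, COL3A1 and DCN were among those with none, although 2 of 3 probes of COL3A1 outside the table were clearly above background under a duplex. In bulk samples fewer cells of a type and less RNA per cell cannot be told apart.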

How the data were processed

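Arrays were grouped by their labels. The authors scanned the arrays and deposited the output of Agilent Feature Extraction, whose processed signal is an intensity with the background subtracted within each array, and a table of log2 values with nearly equal quartiles within a set. The normalization behind the table is not given in the sources used here. The table follows the rank of the processed signals within an array, and 26 of its control rows were left out. From the deposited files, differences between arrays were computed in Python 3.11.15 with pandas 2.3.3 and numpy 2.4.6, and alternatives in R 4.3.3 with limma 3.58.1. A probe was well above background where at least 50% of its spots were marked so. Scaled scanner signals were log2 processed signals minus the 75th percentile of the array, without the 52 to 209 of 43376 spots marked as outliers. No array had saturated spots (0 in all), and precision is set by how few arrays there are.

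Probes took a current symbol by RefSeq accession (23958), symbol (2755) or synonym (1032), and 13255 of 41000 have none. Named genes are the 10 with the largest difference in each direction among probes with a symbol past 2-fold in the table and in scaled signals, the 5 largest bounds in each direction, list members past 2-fold, the 5 extremes of the decreased list in each direction, and CDH1, ZEB1, LATS2, MICA and TGFBR2; other genes in the text were chosen after their values were seen. The members, the gene lists and the settings were chosen with earlier results of these data known. Counts and classes were checked on simulated data. One label gives miR-530f for the array used as miR-520f.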

Additional observations from a re-analysis of the deposited data

Results flagged for a closer look

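The deposited table leaves out 2545 of the 28092 probes that were well above background on the array of dsEcad640 or of miR-302a. In scaled scanner signals, 508 of them differed by at least 2-fold, and 832 were well above background on both arrays. The genes below were well above background on one duplex array, not on the other and not on mock sample 1, so their folds are bounds, set against the higher of the dim probe's own signal and the lowest signal well above background on its array. Under dsEcad640, MPEG1, a pore-forming protein of macrophages, was at least 13.7-fold higher, and 1 array of 11 detected it. SYT15 was at least 12.7-fold higher, the beta-defensin DEFB105A, whose copy DEFB105B is nearly identical, at least 11-fold (10.99), RSPO2, an agonist of WNT signalling, at least 9.98-fold, and MBP, the myelin basic protein, at least 8.34-fold. Under miR-302a, TENM3, a teneurin, was at least 22.1-fold higher than under dsEcad640, ADORA1, an adenosine receptor, at least 11-fold (11.00), CA10 at least 7.15-fold, ZNF502 at least 6.67-fold and MEIOB, a protein of meiosis, at least 6.19-fold. CA10 and ZNF502 were also detected on 1 array of 11, RSPO2, MBP, TENM3 and ADORA1 on 2, and SYT15, DEFB105A and MEIOB on 4. Of all 173 probes with a bound of at least 2-fold, 48 were bright under dsEcad640 and 125 under miR-302a, and 18 were bright on 1 of the 11 arrays alone. Each rests on 1 array, and the cause was not tested.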

How the results depend on the processing

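Counts depended on the values used, and directions mostly did not. The 34 higher and 57 lower probes became 10 and 35 after normexp background correction with an offset of 50, 301 and 303 at a threshold of 1.5-fold, 5 and 16 at 3-fold, 15 and 22 as genes with the mean of their probes, and 221 and 436 in scanner signals over all probes above background on either array, which was added after the data were seen. The lower count was 102 in scaled scanner signals of the members. The 41 probes of dsEcad640 alone became 70 in scaled scanner signals and 26 at a size of 0.3. Between mock samples 1 and 8, 122 probes differed by 2-fold, against 608 between mock samples 11 and 9. After normexp the medians of the lists of G1 brakes and p53 targets (-0.0015) and of the TGF-beta pathway (-0.0025) changed sign, as did the smaller ones of mesenchymal and matrix genes (-0.0760), androgen-response markers (-0.17), cholesterol and fatty acid synthesis genes (-0.05) and the BCL2 family (-0.04), of which the last 3 were also below 0 in scaled scanner signals (-0.0276, -0.0066 and -0.0147). Those of published targets (-0.17), E-box repressors (0.0638), epithelial genes (-0.0945) and YAP targets and Hippo kinases (0.0228) moved by more than the larger of 0.05 and the list's median between mock samples 11 and 9. Normexp moved the median of all differences to -0.08. Epithelial genes had -0.0804 in scaled scanner signals. The cause was not tested. Of 24 named probes past 2-fold, 16 stayed past it in the same direction under all 4 other scalings. The interferon median was 0.32 after normexp and 0.52 to 0.53 otherwise, and that of NF-kappaB genes 0.10 after normexp, where their medians between the mock arrays are large. No paired analysis was possible because each side has 1 array, and for the same reason no replicate could be left out. Bright probes carry few of the differences past 2-fold, and at dim probes signal over background limits the values.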
